A study of Mus musculus with 40 samples.

Results

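The hypothalamus after removal of the testes together with a high-fat diet (HFD) was compared here with the hypothalamus of intact mice on chow, in the fraction of RNA that an astrocyte pull-down left behind. All mice carried the Aldh1l1 eGFP-L10a transgene, in which the promoter region of the astrocyte gene Aldh1l1 drives a fluorescent tag on ribosomal protein L10a. Tagged ribosomes were pulled out of micro-dissected hypothalami, and the remaining lysate, the supernatant, gave a library of its own. The supernatant holds messages of neurons, oligodendrocytes, microglia, vessels and the astrocyte RNA that was not captured. By the column names of the count table, 7 supernatant libraries came from orchiectomised mice on HFD (written GDX-HFD or ORX-HFD in the labels) and 7 from sham-operated mice on chow, so that 14 of the 40 libraries of the series were compared. A further 6 supernatant libraries of sham-operated mice on HFD entered the same fit. The diets lasted 4 weeks. The series, as analysed here, has no orchiectomised mice on chow, so surgery and diet cannot be told apart in this contrast, and the separate diet and surgery steps are given beside the genes with the smallest p. The labels give no ages, and they do not say whether 1 sample number stands for 1 mouse.

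Testosterone from the testis acts on the hypothalamus both directly and, after conversion to estradiol, through the estrogen receptor. Through steroid-sensitive neurons of the arcuate nucleus and the preoptic area, testicular steroids restrain gonadotropin-releasing hormone, and orchiectomy removes that feedback. Other arcuate neurons, marked by Agrp and Npy or by Pomc and Cartpt, sense leptin and insulin and set food intake, and a high-fat diet acts on them and on the glia around them.

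The libraries had the marks of male hypothalamus. Oxt, the oxytocin precursor, had a median of 484 CPM over the 20 supernatant libraries, Pmch, the melanin-concentrating hormone precursor, 650 CPM and Hcrt, the orexin precursor, 154 CPM. CPM, the unit of all levels here, are TMM-normalised counts per library total. Ddx3y, which is Y-linked, lay between 62.9 and 104 CPM, and Xist did not exceed 0.196 CPM. Total counts were 9221431 to 12931869 after orchiectomy on HFD and 9280869 to 10975811 on chow. Of 5 library measures, total counts had the smallest exact two-sided permutation p, 0.119 (adjusted p 0.597), with a mean of 10735435 against 9852364. Libraries differed strongly within each group: mt-Rnr2, the mitochondrial 16S ribosomal RNA, ran from 9778 to 89621 CPM in orchiectomised mice and from 12019 to 119722 CPM on chow. The first principal component of the 20 libraries took 41.6% of the variance, and 3178 of 10620 genes at 5 CPM or more (29.9%) correlated with it at an absolute r above 0.8.

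No gene passed the test between orchiectomised mice on HFD and sham mice on chow. Of 14628 genes tested with edgeR's quasi-likelihood test, 0 (0%) had a Benjamini-Hochberg adjusted p under 0.05. At an unadjusted p under 0.05 there were 331 genes (2.26%), of which 188 were higher (1.29% of the genes tested) and 143 lower (0.978%) after orchiectomy on HFD. DESeq2 called 1 gene, Sytl4, and limma voom called 0, with 340 and 358 genes at an unadjusted p under 0.05. Fold changes were small, with a median absolute log2 fold change of 0.09 and a median SE of 0.16. Of 10163 genes with regular symbols and a mean of 5 CPM or more, 2 differed 2-fold or more in the fitted means. They were Pcdhgc5 (log2 fold change 2.87) and Pcdha4 (2.22), clustered protocadherins whose last exons are shared within each cluster. Pcdha4 was named after its values were seen. The diet step alone (sham HFD minus sham chow) had 0 calls and 206 genes at an unadjusted p under 0.05, and the surgery step alone (orchiectomised HFD minus sham HFD) had 0 calls and 439 such genes. These 3 contrasts share libraries. On simulated counts with independent genes, the same test recovered 62% of genes changed 1.5-fold and 98% of those changed 2-fold, with 12 false calls. The simulation lacked the shared axis of the real libraries. Its changed genes all had a mean of 5 CPM or more, so these shares do not cover lower genes. Many genes were changed at once, which eases the threshold on the adjusted p.

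**Figure D1:**
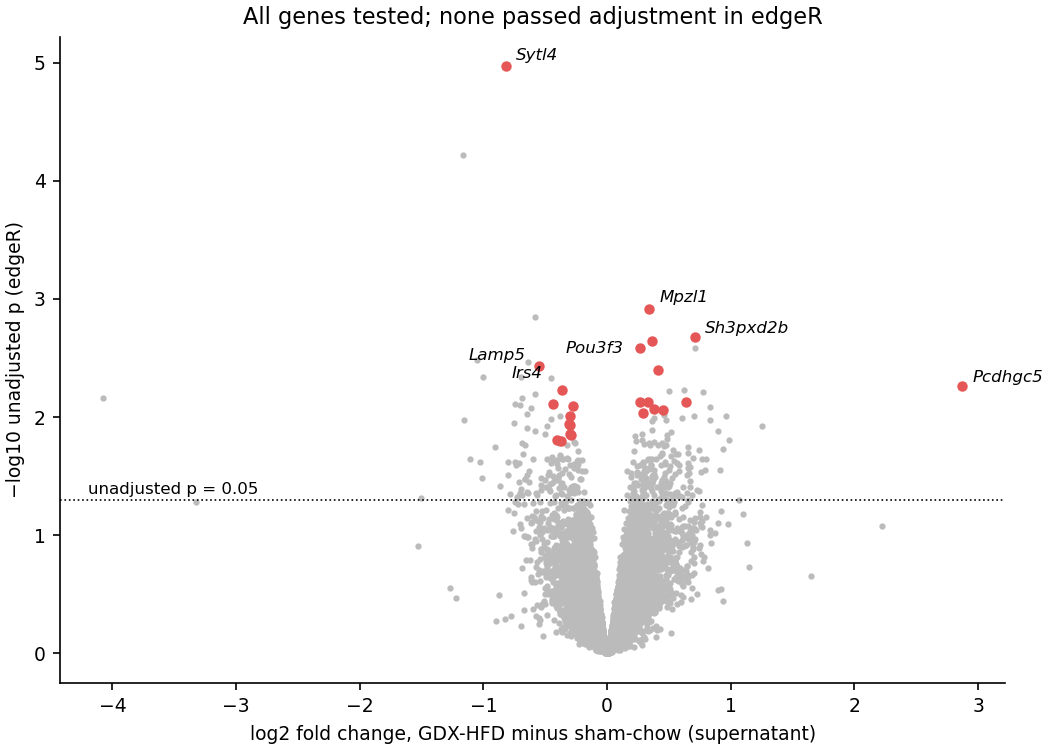
Each point is 1 of the 14628 genes tested in supernatant, with its log2 fold change (orchiectomised HFD minus sham chow) on the x axis and the −log10 of its unadjusted edgeR p on the y axis; the red points are the 12 named genes with the smallest p in each direction. Sytl4 stands highest at a p of 1.07e-05, and it did not pass adjustment (adjusted p 0.157).

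Sytl4 had the smallest p of all genes. It encodes synaptotagmin-like 4 (granuphilin), a Rab27 effector that docks secretory granules at the plasma membrane, and it lies on chromosome X, 133936385 to 133981812, minus strand (GENCODE annotation of GRCm38). Its promoter window, the 250 bases before the annotated start from RefSeq on GRCm38.p6, is shown with that of Lamp5, the named lower gene with the next smallest p, and both were searched for hormone-receptor motifs because the contrast includes orchiectomy. Letters in capitals mark AGAACA, a core motif of steroid response elements, which was searched together with its other strand TGTTCT and with the estrogen receptor motif AGGTCA (other strand TGACCT).
Sytl4, chrX:133981813-133982062, minus strand: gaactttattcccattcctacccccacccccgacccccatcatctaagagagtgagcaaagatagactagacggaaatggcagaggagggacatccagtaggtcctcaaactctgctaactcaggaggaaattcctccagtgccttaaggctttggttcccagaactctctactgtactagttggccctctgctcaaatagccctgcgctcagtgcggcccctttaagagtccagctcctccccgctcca
Lamp5, chr2:136052089-136052338, plus strand: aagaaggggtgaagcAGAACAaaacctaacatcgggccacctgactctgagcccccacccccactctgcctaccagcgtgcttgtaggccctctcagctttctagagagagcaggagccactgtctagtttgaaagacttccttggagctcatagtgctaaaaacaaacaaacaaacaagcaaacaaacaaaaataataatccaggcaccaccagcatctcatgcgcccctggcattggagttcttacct
The Lamp5 window runs past the GENCODE start at 136052239, so that its last bases lie inside that gene. It holds AGAACA at bases 16 to 21, and the Sytl4 window holds neither motif. Of 32851 RefSeq promoter windows of this length, 16.1% hold the first motif and 14% the second, so a match is common and is given as a description only.

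Sytl4 measured 9.46 CPM at its lowest, 11.0 at the median and 13.9 at its highest in the 7 orchiectomised libraries, against 13.7, 20.5 and 26.2 CPM on chow. Of the 7 orchiectomised libraries, 6 lay below the lowest chow library, and the ranges met only at their edges. The log2 fold change was −0.82 ± 0.15 (SE), with an adjusted p of 0.157 in edgeR. The 6 sham libraries on HFD ran from 14.8 to 24.8 CPM, close to the chow range. The diet step was −0.01 ± 0.15 and the surgery step −0.81 ± 0.15 (adjusted p 0.292). Sytl4 was called in DESeq2 (adjusted p 0.00105), with the first principal component as a covariate (0.0461) and without chow sample 7 (0.0305). It was also called in 4 fits with residual components as covariates, which are described with the processing alternatives. All fits with covariates were chosen after seeing the data, and the residual components are orthogonal to the groups by construction. Those 4 calls are therefore no added support for Sytl4. Of 31 alternative settings, 7 called it. It was not called with limma voom (adjusted p 0.325), in edgeR with the 14 libraries alone (0.483) or with the second deposited table (limma trend, 0.232). Its adjusted p reached 0.58 without chow sample 19 and 1 without orchiectomised samples 2 and 6 together. In the pull-downs of the same samples the difference was −0.49 ± 0.19 (edgeR adjusted p 0.392), and the fraction interaction was 0.30 ± 0.22 (adjusted p 0.784).

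Lamp5, a lysosome-associated membrane protein of restricted neuron populations (chromosome 2, 136052239 to 136069917, plus strand), measured 5.75, 6.81 and 11.1 CPM (lowest, median, highest) after orchiectomy on HFD and 7.93, 10.1 and 13.2 CPM on chow. The highest orchiectomised library, sample 2, stood alone, and the other 6 lay below every chow library. The log2 fold change was −0.55 ± 0.17, with an edgeR adjusted p of 1.00. The diet step was 0.11 ± 0.17 and the surgery step −0.66 ± 0.18 (adjusted p 0.945).

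**Figure D2:**
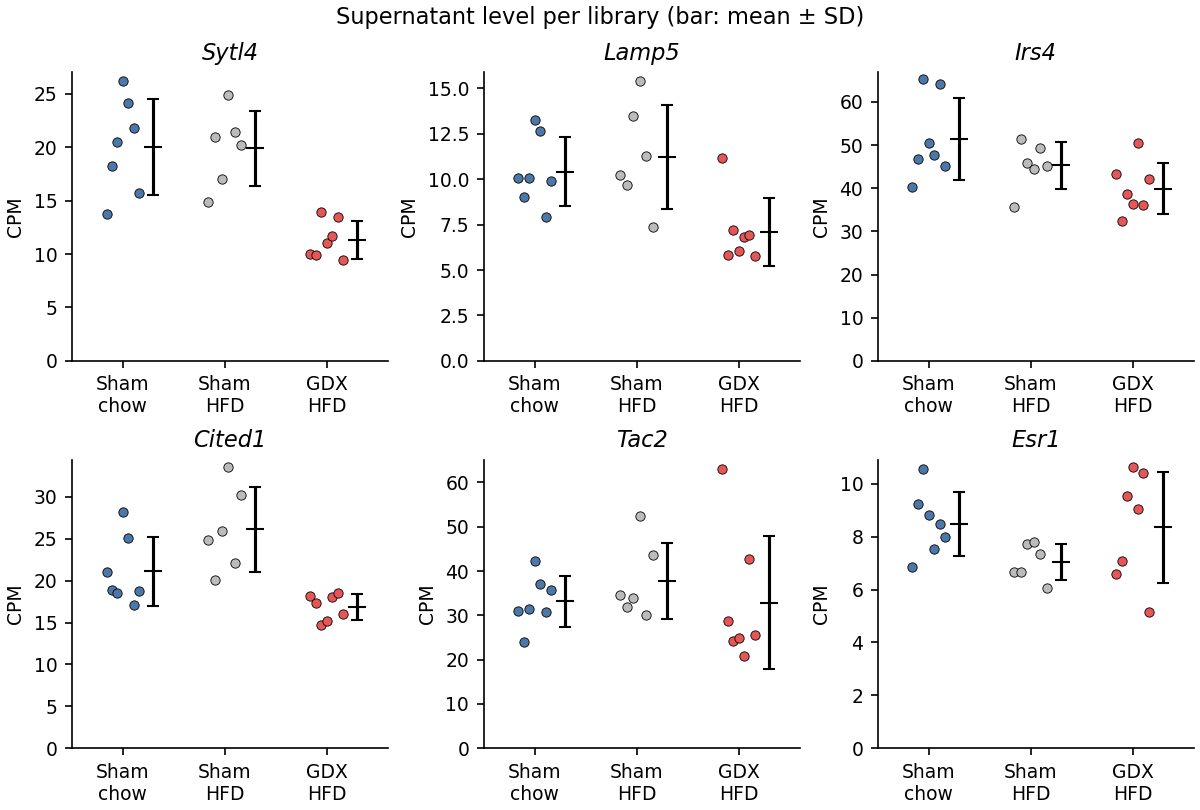
CPM in each supernatant library (points) for 6 genes in sham chow (blue), sham HFD (grey) and orchiectomised HFD (GDX-HFD, red) mice, with the mean ± SD beside each group. Sytl4 and Lamp5 sit lower in the red group than in both sham groups, while the groups overlap widely for Tac2 and Esr1.

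The other lower genes of the 12 with the smallest p had smaller differences and overlapping groups, and their edgeR adjusted p was 1.00. Irs4, an insulin receptor substrate of hypothalamic neurons, measured 32.3, 38.6 and 50.4 CPM after orchiectomy on HFD and 40.3, 47.6 and 65.2 CPM on chow (log2 fold change −0.36 ± 0.12). Prlr, the prolactin receptor, measured 31.2, 34.3 and 45.9 CPM against 36.4, 45.6 and 55.0 CPM (−0.30 ± 0.11). For both genes, 4 of the 7 orchiectomised libraries lay below the lowest chow library. In both, the diet step (−0.18 ± 0.12 for Irs4, −0.16 ± 0.11 for Prlr) and the surgery step (−0.18 ± 0.12 and −0.14 ± 0.11) were of like size. Rprml, a reprimo-like membrane protein, differed by −0.44 ± 0.15, and its surgery step was −0.51 ± 0.16 against a diet step of 0.07 ± 0.15. Kcnf1, a modifier subunit of voltage-gated potassium channels, differed by −0.30 ± 0.11 (diet step −0.17, surgery step −0.13), Nectin1, a cell adhesion molecule, by −0.31 ± 0.11 (−0.21 and −0.10) and Col25a1, a membrane collagen of neurons, by −0.30 ± 0.11 (−0.04 and −0.26). In the same order, Fbll1, a fibrillarin-like gene, differed by −0.30 ± 0.11 (0.03 and −0.32), Hnrnpdl, an RNA-binding protein, by −0.27 ± 0.09 (−0.08 and −0.19) and Exo5, an exonuclease, by −0.37 ± 0.14 (−0.01 and −0.36). mt-Nd6, a complex I subunit encoded on the opposite strand of the mitochondrial genome from its neighbours, differed by −0.41 ± 0.16 (−0.18 and −0.22). The steps of these 7 genes had SEs of 0.10 to 0.16, and none passed the test. The strand setting of the counting is not given in the sources used here, so the reads of mt-Nd6 and of the opposite strand may not be separable.

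Among the higher genes, Pou3f3 was the one whose groups did not overlap at 5 CPM or more. It encodes a POU-domain transcription factor, on chromosome 1, 42695768 to 42703176, plus strand. It measured 62.6, 65.9 and 83.0 CPM after orchiectomy on HFD and 49.4, 55.8 and 60.5 CPM on chow, so that all 7 orchiectomised libraries lay above all 7 chow libraries. The log2 fold change was 0.27 ± 0.08, with an edgeR adjusted p of 1.00. Sham mice on HFD ran from 54.4 to 66.0 CPM and overlapped both groups, with a diet step of 0.08 ± 0.08 and a surgery step of 0.19 ± 0.08. In the astrocyte pull-downs Pou3f3 averaged 196 CPM after orchiectomy on HFD and 194 CPM on chow. Its supernatant means were lower, at 68.1 and 56.5 CPM, and the pull-down difference was 0.01 ± 0.10. The part of astrocyte RNA in the supernatant difference was not tested. Over all 14628 genes, 2 (0.0137%) had groups that did not overlap. The other was the low predicted gene Gm26653, which was lower and averaged 0.975 CPM over the 14 libraries.

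Mpzl1, a cell-surface glycoprotein related to myelin protein zero, had the smallest p of the higher genes. It measured 14.0, 16.2 and 18.7 CPM after orchiectomy on HFD and 11.1, 13.0 and 14.1 CPM on chow, and 6 of 7 libraries lay above the chow range (log2 fold change 0.34 ± 0.09, edgeR adjusted p 1.00). Its diet step was 0.03 ± 0.10 and its surgery step 0.31 ± 0.09. Sh3pxd2b, an adaptor of podosomes, differed by 0.71 ± 0.20 and rested on diet (0.31 ± 0.21) and surgery (0.40 ± 0.21) steps of like size. Pex11a, which divides peroxisomes, differed by 0.37 ± 0.11 (diet step 0.20, surgery step 0.16). Serpinb1a, a protease inhibitor, measured 30.3 to 43.6 CPM against 22.5 to 37.0 CPM (0.41 ± 0.13), with a diet step of −0.14 ± 0.13 and a surgery step of 0.55 ± 0.13 (edgeR adjusted p 0.945). Car2, the carbonic anhydrase abundant in oligodendrocytes, measured 163, 204 and 239 CPM against 149, 172 and 186 CPM (0.27 ± 0.09), with a diet step of −0.05 ± 0.09 and a surgery step of 0.32 ± 0.10. Car2 means in the astrocyte pull-downs were higher, at 343 and 308 CPM, than in supernatant, at 199 and 165 CPM. Raver2 (0.63 ± 0.21), Ficd (0.33 ± 0.11), Zfp960 (0.38 ± 0.13), Cox7a1 (0.45 ± 0.16) and Trib2 (0.29 ± 0.10) completed the regular values, all with overlapping groups and an edgeR adjusted p of 1.00. Ficd modifies the chaperone BiP, Cox7a1 is a subunit of cytochrome c oxidase and Trib2 is a pseudokinase. The diet and surgery steps were 0.54 and 0.10 for Raver2, 0.24 and 0.09 for Ficd, 0.01 and 0.37 for Zfp960, 0.15 and 0.30 for Cox7a1 and 0.12 and 0.17 for Trib2. Chow means in pull-down and supernatant, each scaled alone, were 67.1 and 5.64 CPM for Sh3pxd2b and 74.4 and 14.4 for Pex11a. They were 150 and 34.4 CPM for Trib2, 23.4 and 4.07 for Raver2 and 31.8 and 12.7 for Mpzl1. Ficd (16.6 and 7.78) and Cox7a1 (8.58 and 4.49) were also higher in the pull-down. Zfp960 was alike (9.75 and 9.23), and Serpinb1a was lower in the pull-down (11.0 and 27.8). The part of astrocyte RNA in these differences was not tested.

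Pcdhgc5, a clustered protocadherin, had the largest fitted fold change at 5 CPM or more, 2.87 ± 0.92, and it came from 1 library. Orchiectomised sample 2 held 56.9 CPM, the next highest 2.05 CPM, and the chow libraries 0.824 to 1.56 CPM. Genes of the protocadherin clusters share their last exons, where 3′ reads fall, so their counts are uncertain. Pcdhgb2, the gene with the lowest fold change of all, belongs to the same cluster and averaged 0.451 ± 0.759 CPM against 7.46 ± 15.0 CPM on chow (SD, n = 7 each), with a spread larger than its mean.

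Genes of the gonadal feedback circuit were mostly lower, by small amounts, and none passed. Of 17 tested genes of steroid feedback neurons, 15 were lower and 2 higher, with a median log2 fold change of −0.15 against 0.00 over all genes tested, and 4 were lower at an unadjusted p under 0.05, beside 0.978% of all genes. These 4 were Sytl4, Prlr, Cited1 and Pgr. The list was chosen with earlier results of these data known, so this count is a description only. Cited1, a transcriptional coactivator that binds the estrogen receptor, measured 14.7, 17.3 and 18.5 CPM after orchiectomy on HFD and 17.0, 18.9 and 28.2 CPM on chow (−0.32 ± 0.13). Its sham HFD libraries ran from 20.1 to 33.5 CPM and overlapped the chow range, and the diet step of 0.31 ± 0.13 (edgeR adjusted p 0.904) and surgery step of −0.63 ± 0.13 (edgeR adjusted p 0.365) had opposite signs. Pgr, the progesterone receptor, measured 34.3, 41.3 and 45.1 CPM against 37.6, 46.6 and 61.9 CPM (−0.24 ± 0.11), with a diet step of 0.02 ± 0.11 and a surgery step of −0.26 ± 0.11. Pdyn, the dynorphin precursor, differed by −0.23 ± 0.14. Gnrh1, the gonadotropin-releasing hormone precursor, averaged 3.74 ± 1.22 CPM against 3.61 ± 0.65 CPM (SD, n = 7 each), and its groups overlapped (log2 fold change 0.05 ± 0.20). How many members were lower depended on the libraries and on the settings. Without orchiectomised sample 22 the split was 10 lower and 7 higher (median −0.14). Without orchiectomised sample 6 it was 11 lower and 6 higher (median −0.05). The median was −0.09 without orchiectomised sample 17 and −0.10 without chow sample 21. With no filter on low counts it was −0.04 (16 lower, 3 higher), and with a filter at 5 CPM −0.09 (13 lower, 1 higher). With the mean astrocyte marker level as a covariate the split was 10 lower and 7 higher (median −0.1).

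Tac2 and Esr1 gave the 2 calls of the fraction interaction, which asked whether the difference in supernatant departed from that in the pull-downs of the same samples. Among 15629 tested genes, the adjusted p was under 0.05 for 2 (0.0128%), and the unadjusted p for 1041 (6.66%). Tac2 encodes neurokinin B, made by arcuate neurons that drive gonadotropin-releasing hormone, and Esr1 the estrogen receptor alpha. On the plus strand of chromosome 10, Tac2 spans 127724478 to 127731768 and Esr1 4611593 to 5005614. Their promoter windows, shown because these genes carry the fraction difference, hold neither motif. The RefSeq start of Esr1 used here lies inside the GENCODE gene, and so does the whole window.
Tac2, chr10:127724228-127724477, plus strand: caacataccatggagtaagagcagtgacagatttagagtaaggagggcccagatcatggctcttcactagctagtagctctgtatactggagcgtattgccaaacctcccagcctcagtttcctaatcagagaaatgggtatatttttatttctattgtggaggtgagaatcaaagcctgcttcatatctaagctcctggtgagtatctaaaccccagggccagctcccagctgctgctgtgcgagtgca
Esr1, chr10:4611739-4611988, plus strand: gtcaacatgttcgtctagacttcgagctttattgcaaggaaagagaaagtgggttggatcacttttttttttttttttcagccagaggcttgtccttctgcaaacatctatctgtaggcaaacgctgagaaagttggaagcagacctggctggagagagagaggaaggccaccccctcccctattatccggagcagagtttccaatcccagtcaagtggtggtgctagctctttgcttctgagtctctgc
In supernatant, scaled with all 40 libraries, Esr1 measured 5.11, 8.75 and 10.4 CPM after orchiectomy on HFD and 6.85, 8.17 and 10.1 CPM on chow, and the groups overlapped. In the pull-downs it measured 2.29, 2.87 and 4.87 CPM against 0.686, 0.825 and 1.38 CPM, with no overlap. The interaction, pull-down minus supernatant difference, was 1.75 ± 0.26 (log2, edgeR adjusted p 0.000983). Tac2 in supernatant measured 20.1, 25.4 and 62.4 CPM against 23.4, 30.9 and 40.5 CPM, and in the pull-downs 1.51, 9.72 and 12.0 CPM against 0.438, 0.825 and 1.48 CPM. Its interaction was 3.04 ± 0.47 (adjusted p 0.00103), and it did not pass with limma voom (adjusted p 0.202). In both groups each gene was more abundant in supernatant than in the pull-down. In the supernatant fit itself, Tac2 differed by −0.01 ± 0.21 and Esr1 by −0.02 ± 0.15, and the sign of both turned without scaling beyond the library total (0.00436 and 0.00287). Orchiectomised sample 2 held 62.9 CPM of Tac2 in that fit, and the next highest orchiectomised library, sample 17, held 42.6 CPM. Over single left-out libraries the Tac2 difference ran from −0.263 to 0.0709.

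**Figure D3:**
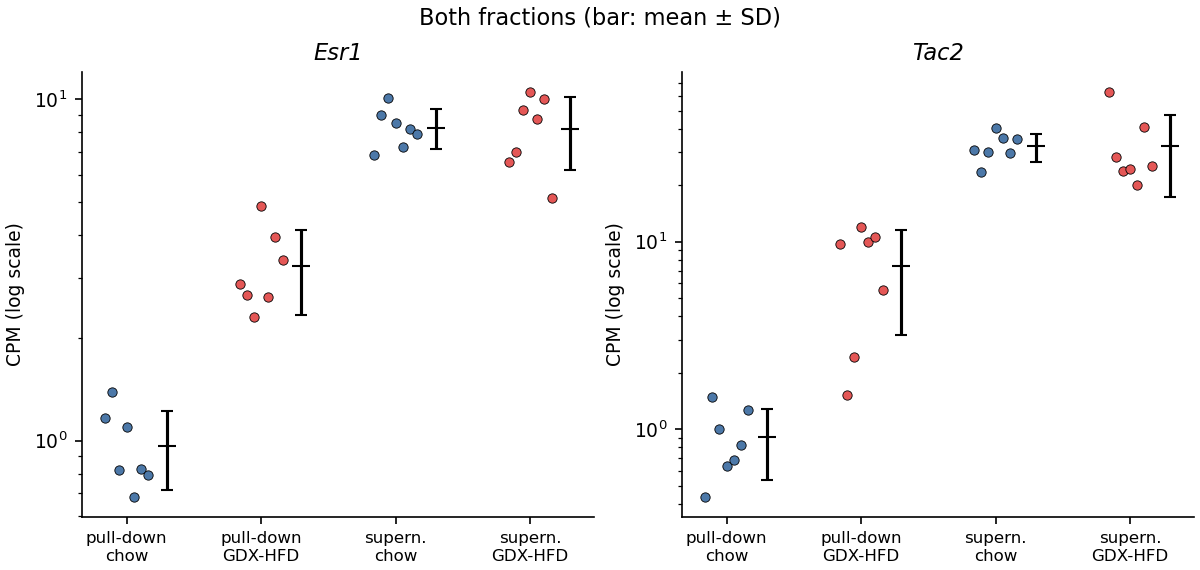
CPM of Esr1 and Tac2 on a log axis in each library (points) of the pull-down and the supernatant, for sham chow (blue) and orchiectomised HFD (red) mice, with the mean ± SD beside each group. The red and blue points separate for both genes in the pull-downs, where all values of both genes lie under those of the supernatant, and overlap in supernatant.

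Of 21 tested androgen-responsive genes, 14 were lower and 7 higher (median −0.11), with 4 lower at an unadjusted p under 0.05, beside 0.978% of all genes, and none passing. Without orchiectomised sample 6 the median was −0.05, with 13 lower and 8 higher. The 4 were Sytl4, Cited1, Cyp2f2 and Fkbp5. Sytl4 and Cited1 were also counted among the steroid feedback genes. This list too was chosen with earlier results known, and its count is a description only. Fkbp5, a cochaperone of steroid receptors that androgens and glucocorticoids induce, measured 10.4, 13.8 and 16.9 CPM after orchiectomy on HFD and 14.1, 15.3 and 20.4 CPM on chow (−0.25 ± 0.12). Cyp2f2, a cytochrome P450, was low, at 0.521 ± 0.360 against 1.14 ± 0.678 CPM (SD, n = 7 each). Of 18 glucocorticoid-induced genes, 11 were lower (median −0.06), among them Plin4, a lipid droplet coat protein, at 0.357 to 1.96 CPM against 1.28 to 2.94 CPM (−0.91 ± 0.36). The diet step of Plin4 was 0.69 ± 0.34 and its surgery step −1.60 ± 0.35 (adjusted p 0.627). Of 15 steroid receptor and metabolism genes, 9 were higher (median 0.02). Hsd11b1, which regenerates active glucocorticoid, measured 1.31 to 10.7 CPM against 0.429 to 5.30 CPM (1.10 ± 0.57).

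The feeding circuit showed no shared direction. Of 24 arcuate feeding genes, 13 were higher and 11 lower (median 0.02), with 0 at an unadjusted p under 0.05. Over single left-out libraries the median ran from −0.05 to 0.04. Agrp, the orexigenic agouti-related peptide, measured 1.25, 1.77 and 2.24 CPM after orchiectomy on HFD and 1.39, 2.16 and 4.20 CPM on chow (−0.47 ± 0.25, diet step 0.21 ± 0.25, surgery step −0.68 ± 0.26). Npy, its partner neuropeptide, measured 20.2, 26.4 and 40.7 CPM against 28.5, 31.5 and 41.4 CPM (−0.18 ± 0.16, diet step 0.01 ± 0.16, surgery step −0.19 ± 0.16). Pomc, the precursor of the satiety peptide alpha-MSH, measured 18.9, 21.5 and 38.2 CPM against 15.4, 20.0 and 26.6 CPM (0.34 ± 0.24), and its sham HFD libraries reached 57.0 CPM. Cartpt differed by 0.12 ± 0.12. Lepr, the leptin receptor, was low at 0.0891 to 2.71 CPM against 0.392 to 2.28 CPM (0.03 ± 0.42). Of 25 leptin, insulin and growth hormone signalling genes, 15 were higher (median 0.02), with Il6st, a cytokine receptor subunit, at 0.20 ± 0.09 and Insr, the insulin receptor, at 0.15 ± 0.11. Of 29 other hypothalamic neuropeptide genes, 19 were lower (median −0.05), with Avp, the vasopressin precursor, at −0.25 ± 0.13, and Nms, neuromedin S, at 1.17 to 3.74 CPM against 0.857 to 1.83 CPM (0.70 ± 0.25).

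Astrocyte markers were nearly all higher, and their spread between libraries was larger than the difference. Of 20 markers, 19 were higher after orchiectomy on HFD (median 0.53), with 1 at an unadjusted p under 0.05, beside 1.29% of all genes higher at that p, and none passing. Over single left-out libraries the median ran from 0.376 (without orchiectomised sample 22) to 0.88 (without chow sample 8), with at least 19 markers higher each time. Their summed level was 2859, 3920 and 7551 CPM (lowest, median, highest) after orchiectomy on HFD, 2406, 2821 and 6680 CPM on chow and 2784, 3442 and 7767 CPM in sham mice on HFD. High and low libraries occurred in each group, with a 2.64-fold range after orchiectomy and a 2.78-fold range on chow. The markers belong to the same cells and were read in the same libraries, so the 19 signs are not independent. Aldh1l1, whose regulatory region drives the ribosome tag, measured 1.78, 6.06 and 11.3 CPM against 1.70, 2.46 and 9.23 CPM (0.65 ± 0.55). Gfap, the intermediate filament of astrocytes, measured 13.5, 24.3 and 34.7 CPM against 8.75, 13.6 and 26.2 CPM (0.52 ± 0.27). S100b, a calcium-binding protein, measured 310, 391 and 653 CPM against 262, 306 and 429 CPM (0.44 ± 0.20). In the pull-downs Aldh1l1 differed by −0.04 ± 0.11 and Gfap by −0.01 ± 0.13, while S100b differed in the other direction from supernatant, by −0.21 ± 0.10 (edgeR adjusted p 0.462). In tissue, more cells of a type and more RNA per cell cannot be told apart, and here the amount of astrocyte RNA left by the pull-down adds to both. Its part in the result was not tested.

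**Figure D4:**
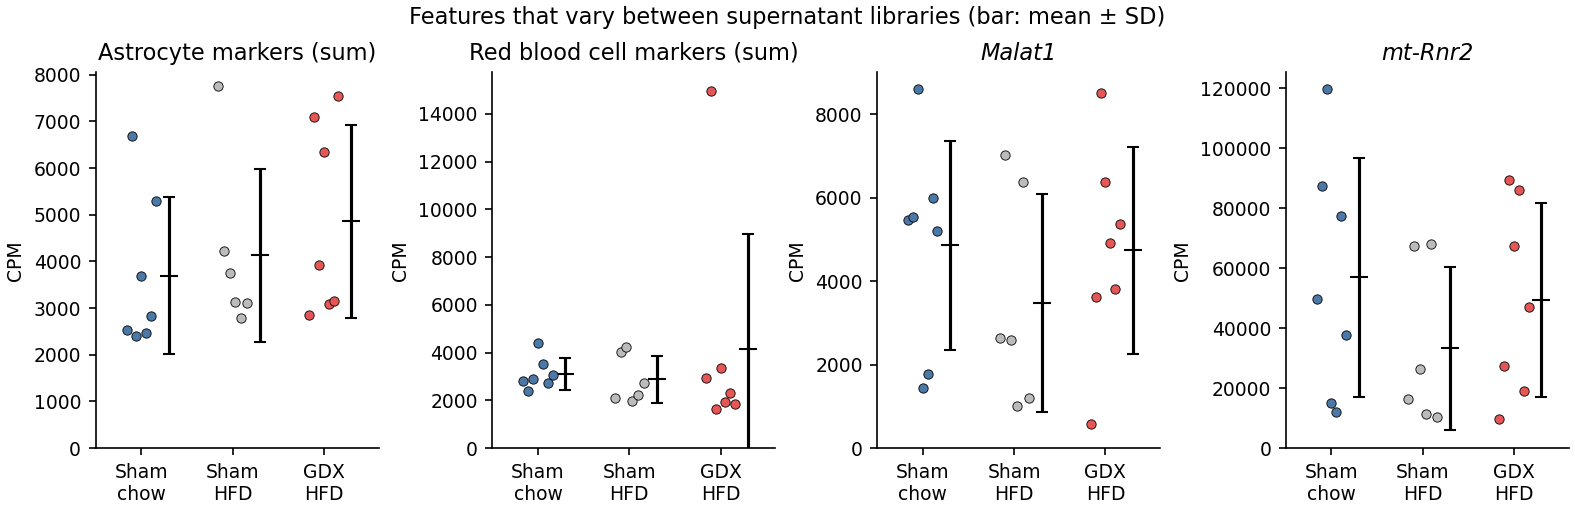
Summed CPM of the 20 astrocyte and 5 red blood cell markers, and CPM of Malat1 and mt-Rnr2, in each supernatant library (points) with the mean ± SD of each group (an SD bar reaching below 0 is clipped at the axis). Astrocyte markers, Malat1 and mt-Rnr2 vary several-fold within each group, while red blood cell markers do so after orchiectomy alone, where sample 6 reaches 14965 CPM.

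Metabolic lists, many of whose genes astrocytes express, differed little. Dio2, the thyroid hormone activating deiodinase of astrocytes and tanycytes, measured 7.49, 10.9 and 23.5 CPM against 6.82, 8.25 and 13.2 CPM (0.65 ± 0.28). Of 17 genes listed as reactive in astrocytes, 12 were higher (median 0.04). Of 26 fatty acid oxidation and ketone body genes, 21 were higher (median 0.07), led by Acaa2 (0.44 ± 0.24) and Acadl (0.41 ± 0.25), enzymes of mitochondrial beta-oxidation. Its median ran from 0.0441 (17 higher, 9 lower) without chow sample 12 to 0.126 (20 and 6) without orchiectomised sample 2, and it was 0.121 without orchiectomised sample 17, 0.112 without chow sample 8 and 0.116 without chow sample 23. With the mean astrocyte marker level as a covariate the split of that list turned to 10 higher and 16 lower (median −0.06). Of 28 glycolysis and glycogen genes, 22 were higher (median 0.08), with Pygb, the brain glycogen phosphorylase, at 36.6 to 87.5 CPM against 29.0 to 53.6 CPM (0.47 ± 0.20) and Gys1, a glycogen synthase, at 0.25 ± 0.13. That list turned to 12 higher and 16 lower (median −0.02) without orchiectomised sample 2, and its median was 0.0231 without chow sample 12, 0.0471 without chow sample 8 and 0.13 without chow sample 15. Of 20 fatty acid synthesis genes, 14 were higher (median 0.07), of 26 lipid handling genes 14 (median 0.02), with Abhd5, a lipolysis coactivator, at 0.34 ± 0.13. Of 24 cholesterol synthesis genes, 18 were lower (median −0.06), while Cyp51, a sterol demethylase, stood on the other side at 0.15 ± 0.10. Over single left-out libraries that median ran from −0.097 (without orchiectomised sample 2) to −0.0207 (without chow sample 23). None of these genes passed the test. With the astrocyte covariate, glycolysis and glycogen genes stood at 20 higher and 8 lower (median 0.07). Cholesterol synthesis genes stood at 7 higher and 17 lower (median −0.09) in that fit. The astrocyte covariate was read from the same libraries and chosen after seeing the data, so these fits are descriptions. The part of astrocyte RNA in these values was not tested.

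Blood was carried by 1 library. All 5 red blood cell markers were higher (median 0.54), with 0 at an unadjusted p under 0.05. Their summed level reached 14965 CPM in orchiectomised sample 6 and had a median of 2310 CPM over that group, against 2413 to 4411 CPM on chow. Hbb-bt, a beta-globin, measured 850 CPM in that library and 70.5 to 220 CPM in the other 6, against 110 to 173 CPM on chow. Without sample 6 all 5 markers were lower (median −0.36). Rsad2, an interferon-induced antiviral gene, was also high in that library (30.2 CPM, next 5.14 CPM), and its fold change of 0.76 ± 0.50 turned to −0.32 without it.

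Markers of the other cell types gave no gene past the test. Of 20 neuron markers, 14 were lower (median −0.05), and their summed level ran from 12337 to 15111 CPM after orchiectomy on HFD and from 12177 to 16417 CPM on chow. Of 16 oligodendrocyte markers, 12 were higher (median 0.09), with Ugt8a, a myelin lipid enzyme, at 0.25 ± 0.12 and summed levels of 9793 to 12238 against 9157 to 12001 CPM. Of 12 oligodendrocyte precursor markers, 7 were higher (median 0.05), with Gpr17, a receptor of maturing precursors, at 0.36 ± 0.16 and Pdgfra, a growth factor receptor of precursors, at −0.19 ± 0.13. Of 17 microglia and macrophage markers, 11 were lower (median −0.06), with Pf4 at −0.35 ± 0.20 and Siglech at −0.17 ± 0.10. Of 13 endothelial markers, 7 were lower (median −0.03), with Emcn, endomucin, at 0.58 ± 0.24 and Esam, an endothelial adhesion molecule, at −0.27 ± 0.18. Of 10 mural markers, 6 were higher (median 0.01), with Rgs5, a pericyte regulator of G-protein signalling, at 0.23 ± 0.12 and Myh11, a smooth muscle myosin, at −0.57 ± 0.40. Of 9 fibroblast and meninges markers 6 were higher (median 0.03), with Igf2, an imprinted growth factor of the meninges, at −0.28 ± 0.13 and Slc22a6, an organic anion transporter, at 0.26 ± 0.15. Of 16 tanycyte and ependymal markers, 10 were lower (median −0.03), and members ran from −0.51 (Crym) to 0.65 (Dio2). Rax, a tanycyte transcription factor, was low, with means of 1.37 against 0.959 CPM, and differed by 0.51 ± 0.25. Of 5 choroid plexus markers 3 were lower (median −0.13) and of 4 pituitary markers 3 (median −0.04).

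Genes of the neighbouring regions bear on how each hypothalamus was cut. Of 11 striatum and septum markers, 9 were lower (median −0.22), with Penk, the enkephalin precursor, at 72.6, 74.3 and 128 CPM after orchiectomy on HFD and 81.1, 94.3 and 147 CPM on chow (−0.22 ± 0.16). Drd1, a dopamine receptor, differed by −0.23 ± 0.20. Their summed levels overlapped, at 435 to 594 CPM against 454 to 583 CPM. Of 13 thalamus and cortex markers, 7 were lower (median −0.06), with Lamp5 among them, and Plekhg1 stood at 0.67 ± 0.38. Without orchiectomised samples 2 and 6 together, Plekhg1 turned to −0.0375. Of 24 hypothalamic patterning factors, 13 were lower (median −0.02), with Lhx8, a factor of the ventral forebrain, at 4.68 to 11.3 CPM against 7.29 to 13.3 CPM (−0.43 ± 0.19) and Lhx6 at −0.31 ± 0.17. The part of dissection in these values was not tested.

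No neuronal signalling gene passed the test. Of 34 glutamate and GABA receptor genes, 24 were lower (median −0.08), with Gabra5, a GABA-A receptor subunit, at 33.2, 38.4 and 46.2 CPM against 38.4, 44.3 and 53.8 CPM (−0.21 ± 0.09) and Grin1, an NMDA receptor subunit, at −0.12 ± 0.08. Of 33 synaptic vesicle and release genes, 20 were lower (median −0.04), while Syt2, a fast calcium sensor of release, stood at 0.27 ± 0.12 with 132 CPM in orchiectomised sample 2. Of 22 immediate early genes, 13 were higher (median 0.04), with Egr3 at 1.25 to 4.20 CPM against 2.45 to 6.92 CPM (−0.69 ± 0.26) and Junb at 0.38 ± 0.21, so that these activity-induced factors differed in sign. Of 21 circadian clock genes, 12 were higher (median 0.03), with Tef at 0.22 ± 0.14 and Per2 at −0.23 ± 0.15. Of 14 thyroid hormone axis genes, 9 were lower (median −0.02), with Crym, a thyroid hormone binding protein, at −0.51 ± 0.28.

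**Figure D5:**
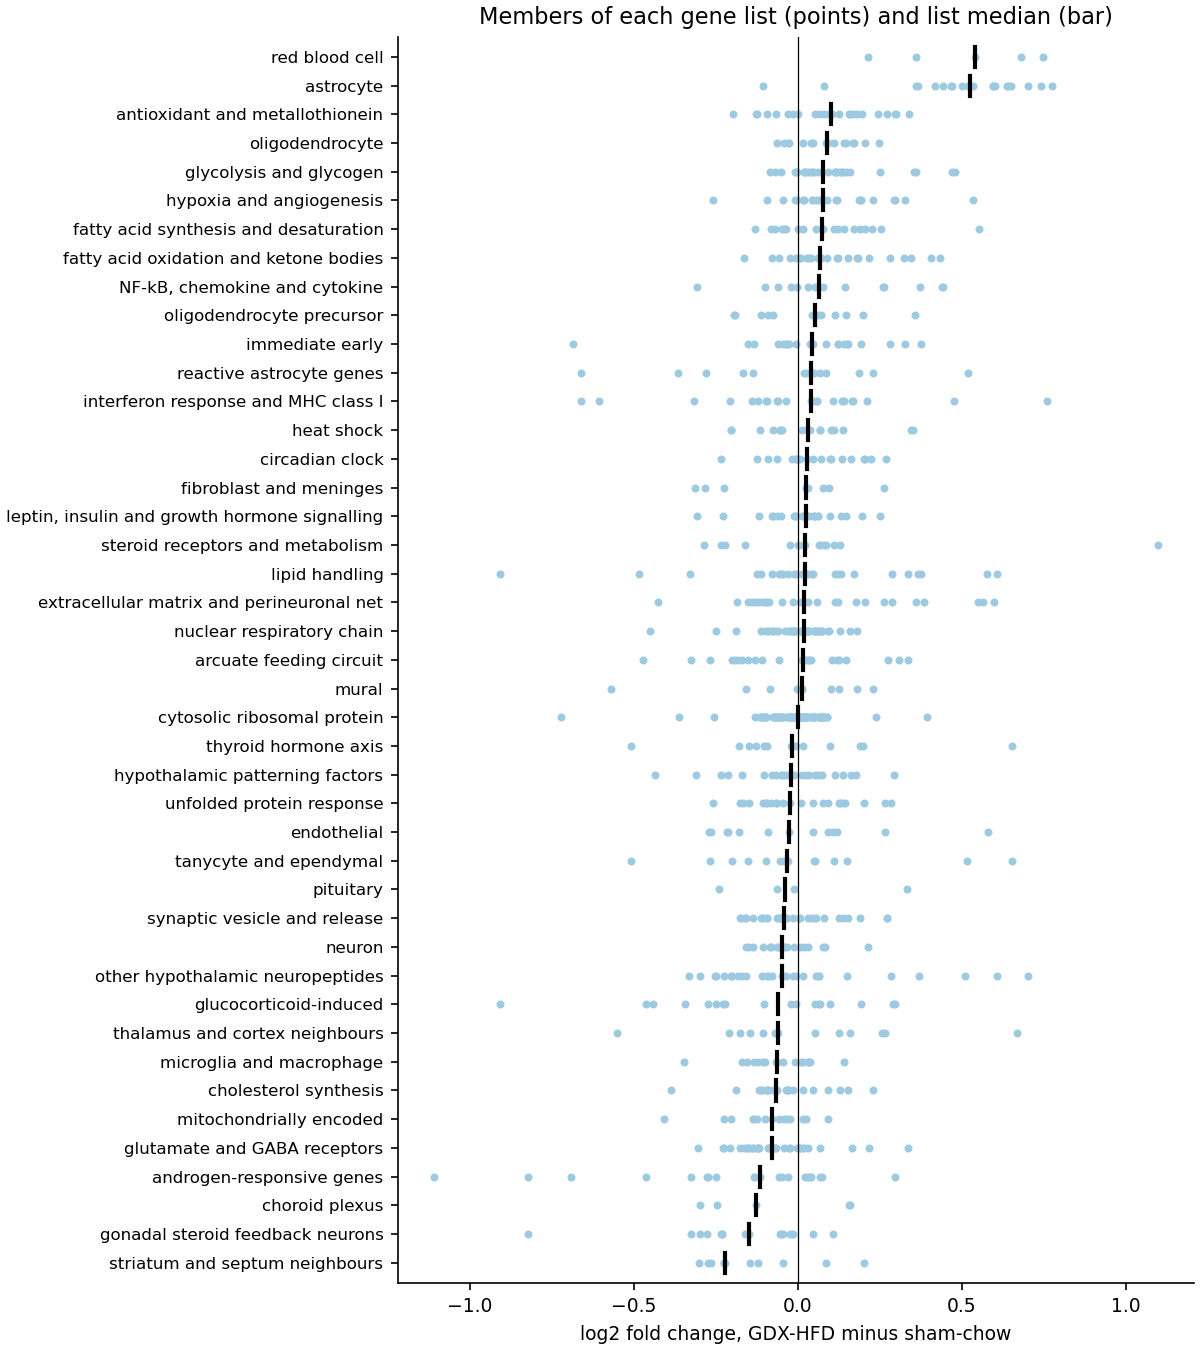
Log2 fold change in supernatant (orchiectomised HFD minus sham chow, x axis) of each tested member (points) of the 43 gene lists (y axis), ordered by their medians (bars). The astrocyte and red blood cell medians lie above 0.5 and the rest between −0.22 and 0.10.

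Stress, immune and housekeeping lists stayed near 0. Of 46 nuclear respiratory chain genes, 27 were higher (median 0.02), with Sdhd, a subunit of succinate dehydrogenase, at −0.45 ± 0.26 and Sdhc, another, at −0.19 ± 0.12. Of 15 mitochondrially encoded genes, 12 were lower (median −0.08). Of 84 cytosolic ribosomal protein genes, 43 were higher and 41 lower (median 0.00). Of 24 antioxidant and metallothionein genes, 17 were higher (median 0.10), and of 18 heat shock genes 11 were higher (median 0.03), with Cryab, a small heat shock protein of oligodendrocytes and astrocytes, at 194, 269 and 306 CPM against 178, 190 and 245 CPM (0.34 ± 0.14). Of 23 unfolded protein response genes, 12 were lower (median −0.02). Of 14 NF-kB, chemokine and cytokine genes, 9 were higher (median 0.06), with Myd88, the adaptor of toll-like receptors, at 0.44 ± 0.21 and Vcam1 at 0.44 ± 0.26. Of 23 interferon response and MHC class I genes, 12 were higher (median 0.04), with Psmb9, an immunoproteasome subunit, at −0.61 ± 0.33. Chow sample 15 held 10.7 CPM of Psmb9, and the next highest chow library held 3.64 CPM. Of 26 extracellular matrix and perineuronal net genes, 14 were higher (median 0.02), with Lama2, a laminin subunit, at 0.36 ± 0.17. Of 23 hypoxia and angiogenesis genes, 18 were higher (median 0.08), with Egln1, an oxygen sensor, at 0.19 ± 0.10 and P4ha1, a collagen hydroxylase, at 0.33 ± 0.17. All of these had an edgeR adjusted p of 1.00.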

How the data were processed

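Polyadenylated RNA was made into 3′ tag libraries with the QuantSeq FWD kit, per the labels' protocols. The submitters' processing notes name Salmon 1.9.0, Trim Galore 0.6.4 and the build GRCm38. The table the authors deposited holds estimated counts for 26792 gene symbols (12.7% of non-zero values not whole). A second table the authors deposited holds a signal equal to the counts times 1 factor per library for 25089 of 26783 shared symbols (within 0.01) and was used in 1 alternative.

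Counts were rounded and tested with edgeR 4.0.16 in R 4.3.3 (quasi-likelihood, robust, TMM, filterByExpr with a minimum count of 10) over the 20 supernatant libraries with 3 group means, and over 40 libraries with 6 means for the fraction interaction. Calls needed a Benjamini-Hochberg adjusted p under 0.05. SE came from the F statistic. Library measures were compared by exact permutation (3432 arrangements). The test was tested on simulated data first. No 2 libraries of a group agreed within sampling noise (lowest chi-square per degree of freedom 5.34). The spread behind each p is that between the deposited samples, which may be technical.

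Named genes were, at a mean of 5 CPM or more and with regular symbols, the 12 higher and the 12 lower ones of smallest p, every gene past the threshold, 13 fixed genes and, from each of 43 lists, at most 2 members ranked by p (111 genes); a few others were named after their values were seen, and some that the rule names are not reported here. The contrast, members and lists were chosen with earlier results of these data known. DESeq2 1.42.0, limma 3.58.1 and other scalings, filters and left-out libraries were alternatives. RefSeq promoters matched 80 of the 111 genes.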

Additional observations from a re-analysis of the deposited data

Results flagged for a closer look

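Among 232 groups of 7 libraries tested (named genes and library measures), 21 had 1 library far from the others. Chance flags about 1 in 20 groups. Orchiectomised sample 2 stood apart in 9 of them: Pou3f3 (83.0 CPM), Pcdhgc5 (56.9), Lamp5 (11.1), Hnrnpdl (106), Gpr17 (20.7), Penk (128), Tef (317), Abhd5 (22.6) and Syt2 (132). That library also held the lowest Malat1 level (567 CPM, up to 8501 in its group) and the lowest share of Gm42418 (0.127%). Orchiectomised sample 6 stood high in Alas2 (47.9 CPM), which makes haem in red blood cell precursors, Hbb-bt (850) and Rsad2 (30.2). Orchiectomised sample 17 stood apart in Enpp2 (174 CPM), Avp (121) and Lama2 (4.00). Chow sample 19 stood high in Npy (41.4 CPM) and Crym (19.9), chow sample 12 in Tshb (1.80) and P4ha1 (19.2), chow sample 8 in Me1 (53.3) and chow sample 15 in Psmb9 (10.7).

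Esr1 (interaction 1.75 ± 0.26, log2) and Tac2 (3.04 ± 0.47) differed between the fractions by the edgeR interaction test, with every orchiectomised pull-down library above every chow pull-down library for both genes. No explanation of these results was tested.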

How the results depend on the processing

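Without calls in the chosen fit, the count of calls was 0 under RLE factors, no scaling beyond the total, no filter, a 5 CPM filter, 14 libraries alone, a non-robust fit, limma voom, the second table and 13 of 14 left-out libraries. It was 1 (Sytl4) with DESeq2 and 0 to 2 over single left-out libraries. The rest were chosen after seeing the data: it was 1 with the first principal component as a covariate, 0 with the mean astrocyte level as a covariate and 0 without orchiectomised samples 2 and 6. With 1, 2, 3 and 4 components of the within-group residuals as covariates it was 1, 1, 110 and 278, of which 12 and 17 were astrocyte markers in the last pair. Such components are orthogonal to the groups by construction, so they remove spread within groups and none between them, and nothing here rests on these counts.

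Genes near 0 changed sign. Tac2 ranged from −0.263 to 0.0709 over left-out libraries, with 0.00436 without scaling and 0.101 with the astrocyte covariate. Esr1 ranged from −0.0827 to 0.0736, with 0.00287 without scaling, 0.000498 with that covariate and 0.0676 without samples 2 and 6. Gnrh1 ranged from −0.0448 to 0.163 (limma voom −0.0179). Lepr ranged from −0.247 to 0.227 (limma voom −0.148; 1, 3 and 4 residual components −0.00473, −0.0764 and −0.0857). With the astrocyte covariate Aldh1l1 was −0.0652 and Elovl2 −0.00939. Over left-out libraries Alas2 ranged from −0.144 to 0.913, Hbb-bt from −0.231 to 0.85 and Rsad2 from −0.322 to 0.92; without samples 2 and 6 they were −0.363, −0.547 and −0.313, and Plekhg1 was −0.0375. Rsad2 was −0.326 in DESeq2. Differences in library shares ranged from −1.29 to 0.124 (mitochondrial, percentage points), −0.445 to 0.146 (Gm42418) and −0.0923 to 0.183 (ribosomal protein genes). The cause was not tested. Library totals had an exact permutation p of 0.0344 without orchiectomised sample 17.

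Sample numbers link a pull-down to a supernatant. Their deviations correlated at −0.15 to 0.222 (median 0.0334, against 0.0062 between different numbers), and 4 of 20 samples fitted their own number best. These values do not settle whether the numbers pair the fractions. The chosen fit did not use the number as a pairing. With the sample as a fixed effect in edgeR the interaction gave 2 calls, with adjusted p 0.0165 for Esr1 and 0.0321 for Tac2. These were larger than in the chosen fit (0.000983 and 0.00103). With the replicate block in duplicateCorrelation and limma voom it gave 1 call (Tac2 2.86, adjusted p 0.177). Limma voom alone gave 1 (Tac2 2.86, adjusted p 0.202). Left-out samples gave 2 to 3 calls. Libraries of a group differed by more than counting noise (chi-square per degree of freedom at least 5.34), so the spread between libraries sets the precision.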

Other observations

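The predicted gene 4933406B17Rik had the second smallest p of all genes. It averaged 0.761 ± 0.178 CPM after orchiectomy on HFD and 1.73 ± 0.552 CPM on chow (SD, n = 7 each), a log2 difference of −1.16 ± 0.24 (edgeR adjusted p 0.445), and was called together with Sytl4 when chow sample 7 was left out. It lies outside the naming rule and was chosen after its values were seen.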
